A study of Mus musculus with 8 samples.

Results

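*Ptgds* and 9 other genes known from the meninges were followed in newborn brains of mice whose mothers had or had not been given cadmium (Cd). The genes were chosen by name, with earlier results of these data known: *Ptgds*, *Slc6a13*, *Slc22a6*, *Dcn*, *Lum*, *Ogn*, *Igfbp2*, *Foxc1*, *Foxd1* and *Tbx18*. All 10 were found by their Ensembl mouse identifier among the 49585 identifiers of the count table, and all 10 were among the 23113 genes that passed the filter on low counts. The study sequenced poly(A) RNA from homogenized whole brains of female B × C pups, F1 hybrids of a C57BL/6J mother (B) and a CAST/EiJ father (C), taken within a day of birth. The mothers of 4 pups drank water with 0 ppm CdCl2 and those of the other 4 pups water with 50 ppm CdCl2, before mating and through pregnancy, and each pup came from a different litter. Both groups thus shared the cross, the sex, the age and the tissue, and differed in the mother's Cd dose. Library totals lay between 22916434 and 30708087 counts.

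The meninges are the membranes around the brain. The inner pair, pia and arachnoid, are built by fibroblasts that secrete collagens and proteoglycans, carry transporters for organic anions, amino acids and osmolytes, and send signals such as retinoic acid and CXCL12 to the developing cortex beneath. *Ptgds* encodes lipocalin-type prostaglandin D synthase, an enzyme that makes prostaglandin D2 and is also secreted into the cerebrospinal fluid, where it binds retinoids and other lipophilic molecules. It is a classic product of arachnoid and pial cells, and oligodendrocytes and choroid plexus are known to make it too. A whole brain keeps part of its meninges after dissection, so the homogenate holds their RNA diluted in that of all neural cells.

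*Ptgds* and *Slc6a13* were higher in every brain of the 50 ppm group than in every brain of the 0 ppm group. The fitted fold was 1.42 for *Ptgds* and 1.25 for *Slc6a13*. The other 8 genes overlapped between the doses. Of the 10 genes, 0 passed an adjusted p of 0.05 in edgeR's quasi-likelihood test (Benjamini-Hochberg over all genes tested), where 0.0173% of all genes tested did. At an unadjusted p under 0.05, 2 of the 10 genes passed, both higher at 50 ppm, beside 3.75% of all genes tested in either direction and 2.31% in the higher one. The same 2 of 10 had all 50 ppm libraries above all 0 ppm libraries, beside 1.19% of all genes tested. DESeq2, which called 18 genes in all, gave 0 of 10 past its adjusted threshold too, with *Ptgds* close to it (adjusted p = 0.0610). It gave 2 of 10 at an unadjusted p under 0.05. The shares of all genes tested given above are those of edgeR and do not stand for DESeq2. The study picked out *Ptgds* with DESeq2 from these same libraries, so its count is not independent evidence of a direction. All 10 genes were chosen with earlier results of these data known, so the counts above are a description and no test of the list. The median log2 fold change was 0.09 over the 10 genes and -0.0033 over all genes tested.

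*Ptgds* (ENSMUSG00000015090) lies on the minus strand of chromosome 2, from 25466709 to 25470046 of GRCm38. It was by far the highest of the 10 genes, in place 571 of all genes tested by mean CPM (counts divided by library size, with TMM factors). The 4 brains of the 0 ppm group gave 269, 258, 215 and 229 CPM, from 5908 to 7885 counts. The 4 brains of the 50 ppm group gave 450, 334, 292 and 303 CPM, from 6876 to 12829 counts. The groups did not overlap, with 292 CPM in the lowest exposed brain and 269 CPM in the highest control brain. Means were 243 ± 25.1 CPM at 0 ppm and 345 ± 72.5 CPM at 50 ppm (SD, n = 4 each). The brain at 450 CPM, 50 ppm replicate 1, stood above the other 3 exposed brains and was also the highest library for *Slc6a13*, *Igfbp2* and *Foxd1* and the lowest for *Foxc1*. The log2 fold change was 0.51 (SE 0.11, 95% interval 0.27 to 0.74), with an unadjusted p of 0.000260 and an adjusted p of 0.300 in edgeR. Without 50 ppm replicate 1 it was 0.35, the lowest value with any single library left out, and the adjusted p over those 8 fits ran from 0.149 to 0.820. Reads aligned to the CAST/EiJ genome gave nearly the same counts, at most 4 reads apart in any library, and a log2 fold change of 0.52 (SE 0.11, edgeR adjusted p = 0.280). As a share of all counts, *Ptgds* took 0.0215% to 0.0265% at 0 ppm and 0.0290% to 0.0459% at 50 ppm. In RNA of a whole tissue, fewer cells of a type and less RNA per cell cannot be told apart, and the same holds for more.

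**Figure D1:**
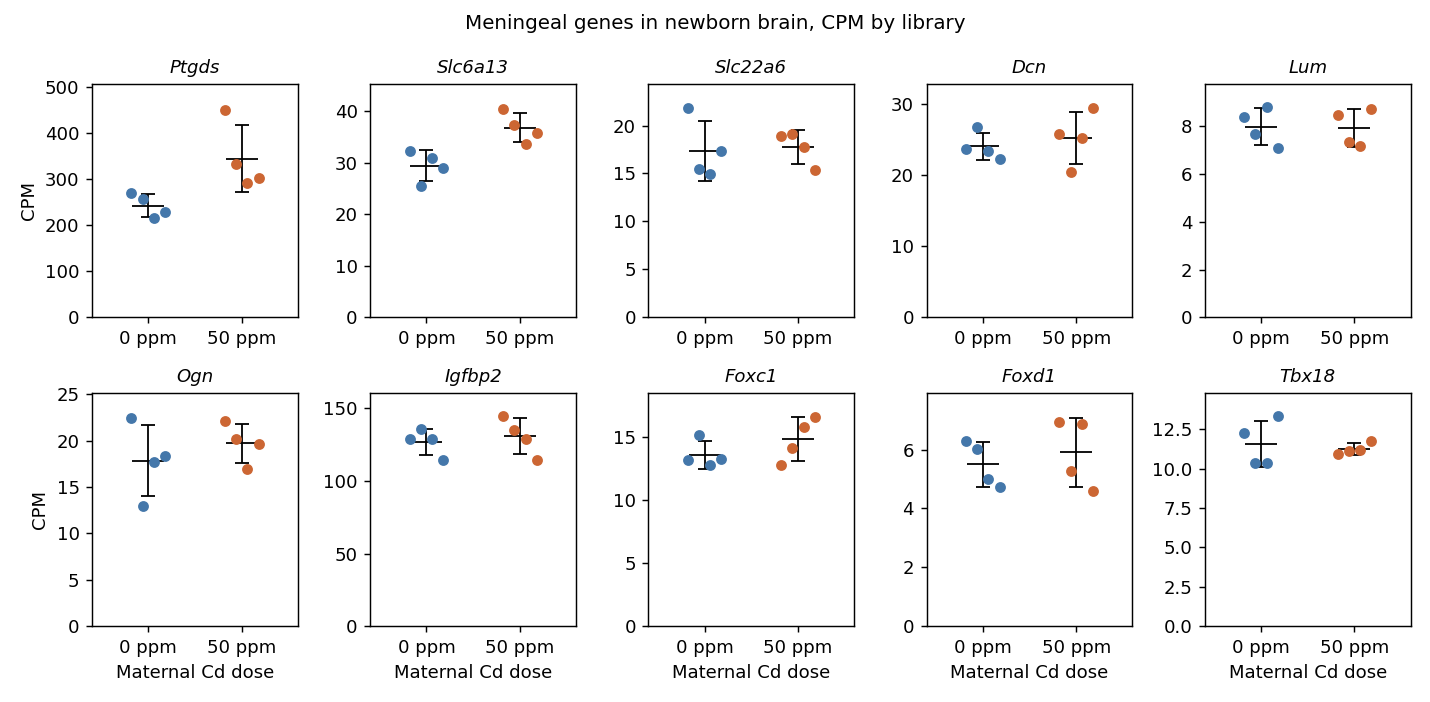
CPM (counts divided by library size, with TMM factors) of each of the 10 meningeal genes by maternal Cd dose, with each axis starting at 0. Each point is 1 brain (4 per dose, replicate 1 on the left), and the bar with whiskers is the mean ± SD. *Ptgds* (215 to 269 against 292 to 450) and *Slc6a13* (25.4 to 32.3 against 33.6 to 40.4) do not overlap between doses, and the other 8 do.

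The transporters come next, and they parted. *Slc6a13* (ENSMUSG00000030108, plus strand of chromosome 6, 121300227 to 121337733) encodes GAT2, a carrier of GABA and taurine in meningeal cells. Its level was 32.3, 25.4, 30.8 and 29.0 CPM in the 0 ppm brains and 40.4, 37.3, 33.6 and 35.7 CPM in the 50 ppm brains. Every exposed brain was above every control. With means of 29.4 ± 3.00 and 36.8 ± 2.86 CPM (SD, n = 4 each), the log2 fold change was 0.32 (SE 0.09, 95% interval 0.13 to 0.52, edgeR unadjusted p = 0.00259, adjusted p = 0.789). Leaving out single libraries moved it between 0.26 and 0.37. *Slc22a6* (ENSMUSG00000024650, plus strand of chromosome 19, 8618039 to 8628299) encodes the organic anion transporter OAT1, which takes up organic anions across the meningeal and kidney cell membrane. It stood at 21.8, 15.5, 14.9 and 17.3 CPM at 0 ppm against 18.9, 19.1, 17.8 and 15.3 CPM at 50 ppm. Its highest library was a control and the groups overlapped fully, with a log2 fold change of 0.04 (95% interval -0.22 to 0.29). The 2 transporters were not tested against each other. Their count ratio, *Slc6a13* over *Slc22a6*, was 1.72 ± 0.250 at 0 ppm and 2.08 ± 0.202 at 50 ppm (SD, n = 4 each), and its libraries overlapped.

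Promoter windows are given for *Ptgds* and *Slc6a13*, the pair that separated the doses, and for *Slc22a6*, the transporter that did not. RefSeq windows on GRCm38.p6, from 250 bases before to 50 after an annotated start, were matched by symbol for 8 of the 10 genes, not for *Dcn* and *Lum*. The *Ptgds* window is chr2:25469700-25469999 on the minus strand, and its start lies 297 bases from the GENCODE gene start. For *Slc6a13* 3 windows were listed, and only the one nearest the GENCODE gene start, 61 bases from it, was read. This *Slc6a13* window is chr6:121300038-121300337 and that of *Slc22a6* chr19:8617746-8618045, both on the plus strand. They are written 5′ to 3′ along the gene, with GC boxes (GGGCGG) and CCAAT boxes (CCAAT), each read on both strands, in capitals.
Ptgds: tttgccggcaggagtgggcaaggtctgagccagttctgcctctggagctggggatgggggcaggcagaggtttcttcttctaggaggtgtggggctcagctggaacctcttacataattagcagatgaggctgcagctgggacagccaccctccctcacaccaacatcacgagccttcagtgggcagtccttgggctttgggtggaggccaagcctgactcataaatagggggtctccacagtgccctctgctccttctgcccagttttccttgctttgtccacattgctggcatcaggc
Slc6a13: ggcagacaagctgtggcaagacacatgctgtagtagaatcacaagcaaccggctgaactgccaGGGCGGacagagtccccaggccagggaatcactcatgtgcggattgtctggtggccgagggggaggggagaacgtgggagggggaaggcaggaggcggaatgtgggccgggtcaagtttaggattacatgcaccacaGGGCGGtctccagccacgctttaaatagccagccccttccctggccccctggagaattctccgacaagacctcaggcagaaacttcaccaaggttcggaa
Slc22a6: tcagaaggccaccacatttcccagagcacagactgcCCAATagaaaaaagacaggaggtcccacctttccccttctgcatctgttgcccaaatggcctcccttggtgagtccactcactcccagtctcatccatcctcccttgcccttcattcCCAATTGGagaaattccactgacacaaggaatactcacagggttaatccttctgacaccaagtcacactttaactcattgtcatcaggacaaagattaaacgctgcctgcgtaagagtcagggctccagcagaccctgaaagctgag

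The windows of the 2 genes that separated the doses were unlike each other in these letters. The *Slc6a13* window held 2 GC boxes, at -187 and -50 from the start, with 11 CpG and 59.0% G + C. The *Ptgds* window held 2 CpG at 57.7% G + C and no match to any of 6 motifs searched on both strands. That of *Slc22a6* held CCAAT 3 times, of which 2 on opposite strands overlapped, with 2 CpG at 50.0% G + C. Over all 32851 windows of the table the medians were 7 CpG and 52.7% G + C. Among those windows 35.7% held GGGCGG, 37.4% CCAAT, 13.6% TATAAA, 16.3% the nuclear receptor half-site AGGTCA, 3.65% the forkhead motif TGTTTAC and 25.7% a metal response element core, TGCACNC or TGCGCNC. A match describes letters in the window and is not a site in use.

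The matrix genes of the fibroblasts overlapped between doses. *Dcn* (ENSMUSG00000019929, chromosome 10, 97479609 to 97518143) and *Lum* (ENSMUSG00000036446, chromosome 10, 97565128 to 97572703), neighbours on the plus strand, encode decorin and lumican, small leucine-rich proteoglycans that bind collagen fibrils. *Dcn* had 23.7, 26.8, 23.3 and 22.3 CPM at 0 ppm against 25.7, 20.4, 25.3 and 29.4 CPM at 50 ppm, so the lowest and the highest library were both exposed. *Lum* had 8.40, 7.66, 8.82 and 7.09 CPM at 0 ppm against 8.49, 7.34, 7.17 and 8.73 CPM at 50 ppm, nearly the same range. *Ogn* (ENSMUSG00000021390, plus strand of chromosome 13, 49608046 to 49624501) encodes osteoglycin, another proteoglycan of this family. It had 22.4, 13.0, 17.6 and 18.3 CPM at 0 ppm against 22.1, 20.1, 16.9 and 19.7 CPM at 50 ppm, with the lowest and highest library both among the controls. Their log2 fold changes were 0.07 (95% interval -0.16 to 0.29) for *Dcn*, -0.01 (-0.29 to 0.26) for *Lum* and 0.14 (-0.14 to 0.43) for *Ogn*, each with an edgeR adjusted p of 0.999.

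*Igfbp2* (ENSMUSG00000039323, plus strand of chromosome 1, 72824503 to 72852474) encodes a secreted binding protein for insulin-like growth factors that meninges, choroid plexus and glia make. Its level was 129, 136, 129 and 114 CPM at 0 ppm against 145, 135, 129 and 115 CPM at 50 ppm. The groups spanned almost the same range, and the log2 fold change of 0.04 had the narrowest interval of the 10 genes, -0.12 to 0.21. The count ratio of *Ptgds* to *Igfbp2*, which depth and scaling do not touch, was 2.09, 1.90, 1.67 and 2.00 at 0 ppm and 3.11, 2.47, 2.26 and 2.64 at 50 ppm. It did not overlap between the doses. The ratio of *Ptgds* to *Dcn* was 10.1 ± 0.925 at 0 ppm and 13.9 ± 3.54 at 50 ppm (SD, n = 4 each) and did overlap.

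Transcription factors of the meningeal mesenchyme were low, and they overlapped as well. *Foxc1* (ENSMUSG00000050295, plus strand of chromosome 13, 31806633 to 31812476, 1 exon) encodes a forkhead factor that the meninges need to form. It had 13.1, 15.1, 12.7 and 13.2 CPM at 0 ppm against 12.7, 14.1, 15.8 and 16.6 CPM at 50 ppm; 2 exposed brains were above all controls and 1 was level with the lowest control. *Foxd1* (ENSMUSG00000078302, plus strand of chromosome 13, 98354242 to 98359305, 1 exon) encodes a forkhead factor of stromal and pericyte precursors. It had 6.28, 6.03, 4.996 and 4.72 CPM at 0 ppm against 6.95, 5.27, 6.85 and 4.59 CPM at 50 ppm, with the lowest and the highest brain both exposed. *Tbx18* (ENSMUSG00000032419, minus strand of chromosome 9, 87702800 to 87731260) encodes a T-box factor of mural cells and meningeal fibroblasts. It had 12.3, 10.3, 10.4 and 13.3 CPM at 0 ppm against 10.9, 11.1, 11.2 and 11.8 CPM at 50 ppm, the exposed brains lying inside the control range. Exons of *D030062O11Rik* on the opposite strand cover 20.6% of the *Tbx18* exon length, and the strand setting of the count is not given in the sources used here, so the *Tbx18* values are uncertain. The log2 fold changes were 0.13 (95% interval -0.11 to 0.36) for *Foxc1*, 0.11 (-0.24 to 0.45) for *Foxd1* and -0.04 (-0.29 to 0.21) for *Tbx18*. Across the 8 genes that overlapped, the interval bounds in linear folds ran from 0.819 for *Tbx18* to 1.37 for *Foxd1*, so with 4 brains a dose a change of the size fitted for *Slc6a13* lay inside some of these intervals.

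**Figure D2:**
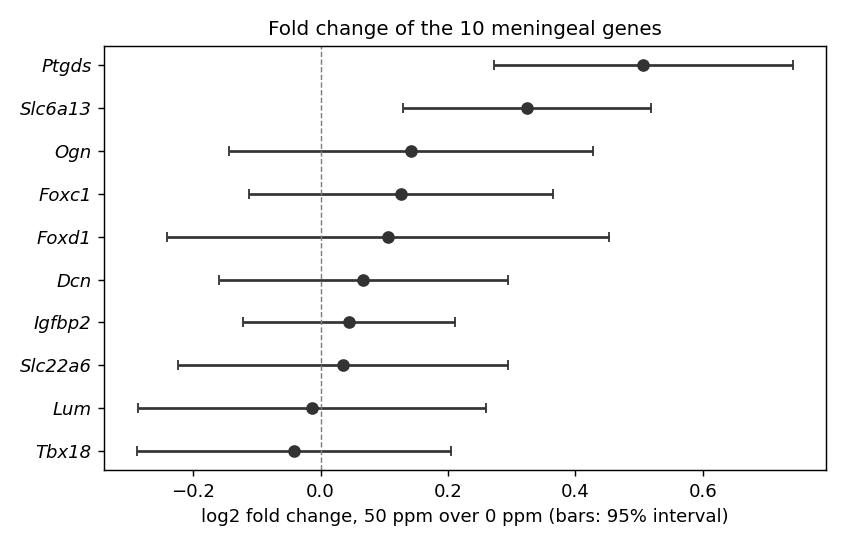
Fitted log2 fold change, 50 ppm over 0 ppm, of the 10 meningeal genes, with the 95% interval from edgeR's quasi-likelihood fit of 4 against 4 brains as bars. The intervals of *Ptgds* (0.27 to 0.74) and *Slc6a13* (0.13 to 0.52) lie above 0 and the other 8 cross it.

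Per kilobase of exon, the levels of the 10 genes ran from 178 to 1.13 CPM per kb in these brains. *Ptgds* averaged 178 CPM per kb, *Igfbp2* 69.8 and *Slc6a13* 11.4, and their library ranges stood apart from one another. *Ogn* followed at 7.31 CPM per kb (library range 5.06 to 8.73) and was above *Slc22a6* within each of the 8 brains, though their ranges over brains overlapped. *Slc22a6* (4.41 CPM per kb, library range 3.74 to 5.47) and *Dcn* (4.22, library range 3.49 to 5.04) could not be ordered, since either was the higher in some brains. *Lum* (3.25, library range 2.89 to 3.60) was below *Dcn* within each of the 8 brains. *Foxc1* and *Tbx18* both averaged 2.42 CPM per kb, below *Lum* in every library and in no fixed order between themselves, and *Foxd1* was the lowest at 1.13. The 9 genes beside *Ptgds* summed to 240 to 269 CPM at 0 ppm and 257 to 291 CPM at 50 ppm, ranges that overlapped.

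Other genes known from the meninges were read from 4 lists, 44 genes in all, of which 43 passed the filter. They are not particular to the meninges: other cells of a brain make some of them too, as astrocytes do *Gjb6*. RNA of a whole brain does not separate these sources. The lists were chosen with earlier results of these data known, so their counts are a description and no test of the lists. Of the 43 genes, 13 had an unadjusted p under 0.05 and a higher level at 50 ppm, and 0 a lower one, beside 2.31% and 1.44% of all genes tested. None of the 43 passed the adjusted threshold in edgeR and 1, *Aldh1a2*, did in DESeq2. Every exposed library was above every control for 6 of them and below for 0, beside 1.19% and 0.904% of all genes tested. The fitted log2 fold change was positive in 40 and negative in 3, with a median of 0.16. Without 50 ppm replicate 1, 7 in place of 13 were higher at an unadjusted p under 0.05, beside 2.2% of all genes tested in that fit.

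Membrane transporters and junction proteins of arachnoid and pia held most of these. Of 12 listed, 7 were higher at an unadjusted p under 0.05 and 0 lower, and the median log2 fold change was 0.37. *Gjb6* and *Gjb2*, the connexins 30 and 26 of meningeal gap junctions, had log2 fold changes of 0.52 (SE 0.14) and 0.49 (SE 0.18). *Gjb6*, which astrocytes also make, was 12.02, 12.5, 11.01 and 9.95 CPM at 0 ppm against 16.9, 12.2, 16.3 and 19.8 CPM at 50 ppm, with 1 exposed brain inside the control range. *Cdh1*, the E-cadherin of the arachnoid barrier layer, was 8.77, 9.08, 7.28 and 7.78 CPM at 0 ppm against 11.2, 9.94, 9.42 and 10.3 CPM at 50 ppm, without overlap (log2 fold change 0.31, SE 0.12). The others were *Slc6a12*, the betaine and GABA carrier BGT1, at 0.67 (SE 0.24), also without overlap, *Slc47a1*, the cation exporter MATE1, at 0.75 (SE 0.26), *Slc6a20a*, a proline carrier, at 0.48 (SE 0.15), and the peptidase gene *Dpp4* at 0.43 (SE 0.18). Exons on the opposite strand cover 14.3% of the *Slc6a20a* exon length, which leaves its values uncertain as for *Tbx18*. *Slc13a4*, a sulfate carrier and with *Slc6a20a* among the pair of highest mean CPM in the list, stood at 0.21 (SE 0.11). The edgeR adjusted p was 0.616 for *Gjb6* and 0.999 for the other 6. Without 50 ppm replicate 1, the count fell from 7 to 3, namely *Slc47a1*, *Slc6a20a* and *Gjb6*.

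Signals from the meninges gave 3 of 9 genes higher at an unadjusted p under 0.05 and 0 lower, with a median log2 fold change of 0.14. *Aldh1a2* encodes the retinaldehyde dehydrogenase that makes retinoic acid in meninges, and the study singled it out from these libraries. It read 17.6, 15.8, 16.3 and 16.6 CPM at 0 ppm against 24.6, 22.1, 20.1 and 23.2 CPM at 50 ppm, clear of each other (log2 fold change 0.44, SE 0.10, edgeR adjusted p = 0.298, DESeq2 adjusted p = 0.0127). *Cxcl12*, the chemokine that guides migrating neurons along the pia, had 0.34 (SE 0.11), and *Igf2*, a growth factor of meninges and choroid plexus, 0.16 (SE 0.07). Exons of other annotated genes on the same strand cover 62.8% of the *Igf2* exon length, so the *Igf2* values are uncertain. *Igfbp5*, an IGF binding protein and second to *Igf2* in mean CPM, had 0.09 (SE 0.08). The count ratio of *Ptgds* to *Aldh1a2* was 14.6 ± 1.43 at 0 ppm and 15.2 ± 2.21 at 50 ppm (SD, n = 4 each) and overlapped. That of *Ptgds* to *Slc6a13*, 8.34 ± 1.34 and 9.31 ± 1.23, overlapped too. The ratio to *Igfbp2* did not overlap, but the ratio to *Dcn* did, although *Dcn* itself overlapped between doses. Overlap of a ratio therefore does not mark the genes that were higher along with *Ptgds*.

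Matrix genes gave 3 of 16 higher at an unadjusted p under 0.05 and 0 lower, with all 16 fitted values above 0 and a median of 0.17. These were *Nid1*, the basement membrane protein nidogen, at 0.29 (SE 0.10), *Pcolce*, an enhancer of procollagen cleavage, at 0.28 (SE 0.13), and *Islr*, a secreted repeat protein of fibroblasts, at 0.19 (SE 0.09). The most abundant, *Fn1* for fibronectin and *Col3a1* for a fibrillar collagen, stood at 0.21 (SE 0.11) and 0.12 (SE 0.10). Without 50 ppm replicate 1, 1 of 16, *Nid1*, was higher at an unadjusted p under 0.05. Mesenchymal transcription factors gave 0 of 6 tested in either direction and a median of 0.05; *Prrx1* stood at 0.05 (SE 0.12) and *Foxf2* at -0.08 (SE 0.16), and *Foxc2* was listed at 0 counts in all 8 libraries.

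The prostaglandin pathway on either side of *Ptgds* gave 0 of 12 genes at an unadjusted p under 0.05, with a median log2 fold change of 0.07. *Ptgs1*, the cyclooxygenase that supplies the substrate of prostaglandin D synthase, was 4.90 ± 0.497 CPM at 0 ppm and 5.10 ± 0.884 CPM at 50 ppm (SD, n = 4 each). *Hpgds*, the other prostaglandin D synthase, made by microglia and other myeloid cells, was 3.72 ± 0.897 and 4.68 ± 0.813 CPM and overlapped. *Ptges3* and *Ptges2*, assigned to prostaglandin E synthesis and the highest of the list, had log2 fold changes of 0.0006 (SE 0.07) and 0.01 (SE 0.08). The inducible cyclooxygenase gene *Ptgs2*, with 6 to 19 counts, and the prostaglandin D2 receptor gene *Ptgdr2*, with 1 to 10 counts, were too sparse for a difference to be read at this depth. The receptor gene *Ptgdr* had 13 to 44 counts and a log2 fold change of 0.31 (SE 0.34). Exons on the opposite strand cover 22.1% of its exon length, which leaves its values uncertain as for *Tbx18*.

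**Figure D3:**
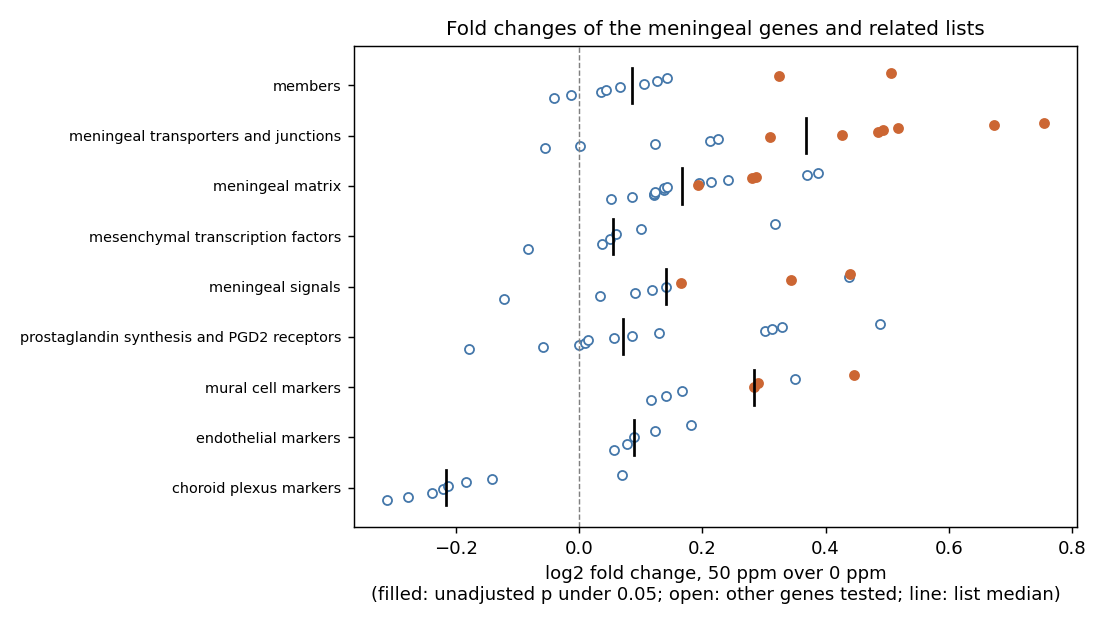
Fitted log2 fold change, 50 ppm over 0 ppm, of the 10 meningeal genes (the row named members), of the related lists and of 3 lists of vessel and choroid plexus markers. Each circle is a gene, filled at an unadjusted p under 0.05, and the line is the list's median, which is 0.09 for the 10 genes, 0.37 for meningeal transporters and junctions and -0.22 for choroid plexus markers.

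The 10 genes were also compared by their profiles over the 8 brains. Likeness was taken as the root-mean-square difference of log2 CPM after each gene's mean was subtracted, over the 16531 genes that reached 10 counts in 4 or more libraries. It is a description of 8 libraries that share the dose contrast. Nearest to *Ptgds* were *Rab37*, a small GTPase of secretory vesicles (0.145 on the log2 scale), *C5ar1*, a complement receptor (0.147), *Psd4*, an exchange factor (0.151), *Aldh1a2* (0.154) and *Cdh1* (0.154). *Rab37*, *C5ar1* and *Psd4* averaged 0.549, 0.725 and 1.52 CPM, so their profiles rest on few reads. *Slc6a13* stood in place 41 of this order at 0.195. *Igfbp2* was in place 637 (0.268), *Foxd1* in place 893 (0.277), *Ogn* in place 1424 (0.289) and *Slc22a6* in place 1476 (0.290). *Lum* came in place 4641 (0.323), *Dcn* in place 4765 (0.324), *Foxc1* in place 6780 (0.339) and *Tbx18* in place 8593 (0.353). The measure is not scaled to a gene's spread, so a gene that hardly changes can come before genes that vary more. A place in this order is therefore not by itself a shared pattern with *Ptgds*. The genes most like the mean profile of the 10 were *Tor1b*, *Ube2f*, *Gm9796*, *Hadha* and *Scp2*, between 0.0381 and 0.0514 away, none of them past an unadjusted p of 0.05.

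**Figure D4:**
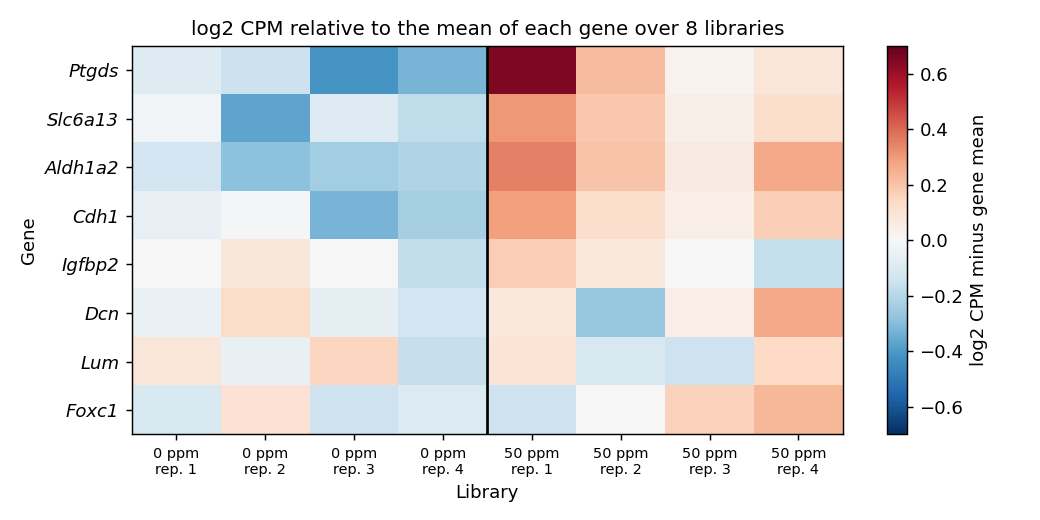
log2 CPM of 8 genes in each of the 8 brains, relative to the gene's mean over the brains, with 0 ppm brains on the left of the line and 50 ppm brains on the right. *Ptgds* reaches 0.65 in 50 ppm replicate 1 and -0.41 in 0 ppm replicate 3; *Slc6a13*, *Aldh1a2* and *Cdh1* follow the same split between doses, and *Dcn*, *Lum* and *Foxc1* have both signs in each group.

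Markers of other cell types and regions also moved with the dose, and their part in the values above was not tested. Oligodendrocyte markers, of cells that make *Ptgds* too, were higher at an unadjusted p under 0.05 in 7 of 9. Of these, 1, *Bcas1*, was past the adjusted threshold in edgeR and 5 were past it in DESeq2. The study called the same 5 (*Mbp*, *Mag*, *Cnp*, *Enpp6* and *Bcas1*) with DESeq2 from these libraries, so the counts of this list are not independent evidence. With single libraries left out, edgeR gave 0 to 5 of the markers past the adjusted threshold. At the unadjusted p it gave 7 each time, of the 8 or 9 that passed the filter in that fit. The 9 markers summed to 108 to 143 CPM at 0 ppm and 145 to 219 CPM at 50 ppm, and *Opalin*, a marker of mature oligodendrocytes, had 0 to 2 counts. The count ratio of *Ptgds* to *Mbp*, a myelin gene, was 4.34 ± 0.696 at 0 ppm and 4.43 ± 0.986 at 50 ppm (SD, n = 4 each) and overlapped. Choroid plexus markers gave 0 of 8 at an unadjusted p under 0.05, with sums of 477 to 1252 CPM at 0 ppm and 369 to 832 CPM at 50 ppm. Mural cell markers gave 3 of 7 higher (sums 252 to 314 and 305 to 368 CPM), endothelial markers 0 of 5 (160 to 183 and 165 to 203 CPM), and astrocyte and radial glia markers 2 of 5 higher (807 to 1277 and 1075 to 1298 CPM). Tissue outside the brain was scarce in both groups. Bone and cartilage markers summed to 16.4 to 22.6 and 14.4 to 20.3 CPM, with 0 of 6 higher and 1 of 6 lower (*Bglap*, 0 to 4 counts), and skin and muscle markers to 5.58 to 6.06 and 4.28 to 6.57 CPM, with 0 of 5 in either direction and *Krt5* at 0 to 4 counts.

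Hindbrain and spinal cord markers separated single libraries most. All 8 tested were higher at an unadjusted p under 0.05 in edgeR, 3 of them (*Hoxb6*, *Hoxb7* and *Hoxb8*) past the adjusted threshold. *Hoxa3* was listed at 0 counts. DESeq2 and the robust edgeR fit each gave 3 of the 8 at an unadjusted p under 0.05 and 2, *Hoxb7* and *Hoxb8*, past the adjusted threshold. With limma-voom these counts were 8 and 1. The study called *Hoxb8* from these same libraries. Without 50 ppm replicate 1, 3 of the 8 markers were higher at an unadjusted p under 0.05 in edgeR. Summed by brain, they gave 0.273, 2.75, 40.1 and 50.9 CPM at 0 ppm against 168, 69.7, 43.8 and 66.3 CPM at 50 ppm, so the brain with the highest *Ptgds* was also the highest here. In the 2 control and 3 exposed libraries between 40.1 and 69.7 CPM, an alternative added after seeing the data, the log2 fold change was 0.48 for *Ptgds* (SE 0.09) and 0.25 for *Slc6a13*. These 5 libraries hold the 2 controls with the lowest *Ptgds* and not the exposed brain with the highest, so the value is a description and bears on no cause. In them 5 of 8 choroid plexus markers were higher at 50 ppm at an unadjusted p under 0.05, beside 2.66% of all genes tested in those libraries, and their median log2 fold change was 0.32, against -0.22 in all 8 libraries. These 5 libraries leave out 0 ppm replicate 2, which had the highest choroid plexus sum of the 8, 1252 CPM. With only that library left out, the median was 0.14 and 0 of 8 had an unadjusted p under 0.05 in edgeR.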

How the data were processed

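Messenger RNA of 8 whole newborn brains, 4 per maternal Cd dose, was sequenced as single-end reads from directional libraries. Per the study's methods, the authors trimmed reads, aligned them with STAR to each parental genome, counted reads per gene with HTSeq (Ensembl version 87 for the B genome) and deposited raw read counts. Tool versions are not given in the sources used here. The 10 genes and all gene lists were chosen with earlier results of these data known. Counts on the B genome were the base here, and those on the C genome were used only for *Ptgds*, since 120 of 37192 identifiers could be paired with a gene. Genes at 0 in more than 5 of 8 libraries were left out, by the rule in the study's methods; the study lists fewer genes after its quality control than were kept here. CPM used library sizes of the kept genes and TMM factors (0.986 to 1.02). The test was edgeR 4.0.16 quasi-likelihood in R 4.3.3, with dose as the only term and Benjamini-Hochberg adjustment over 23113 genes. A fold change is 50 ppm over 0 ppm. DESeq2 1.42.0, its size factors in edgeR, limma 3.58.1 (voom with sample weights), a robust fit, other filters and single libraries left out were the alternatives. Named were the 10 genes, genes of the meningeal and prostaglandin lists with an unadjusted p under 0.05 or among the pair of highest CPM, the 5 genes nearest in profile, and markers on which a result turned or whose counts were at or near 0; *Ptgs1*, *Ptgs2*, *Hpgds*, *Ptgdr* and *Ptgdr2* were added after their values were seen, as enzymes and receptors next to *Ptgds*. Positions and exon lengths came from GENCODE M21 (GRCm38) and promoter windows from RefSeq (GRCm38.p6). The fit was also run on simulated data. The changes set there were larger than any fitted for the 10 genes, so recovery of changes of their size was not tested. Brains are numbered in accession order. Within a dose, the 12 pairs of libraries differed beyond sampling noise (chi-square per degree of freedom 9.28 to 22.7). Each library counted as a replicate because each pup came from a different litter.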

Additional observations from a re-analysis of the deposited data

How the results depend on the processing

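Of the 10 genes, 0 passed the adjusted threshold with edgeR, and 1, *Ptgds*, did without a filter on low counts (log2 fold change 0.51, adjusted p = 0.00307) and 1, *Ptgds* again, in the 5 libraries of closer hindbrain marker level (0.48, adjusted p = 0.00553), chosen after seeing the data and holding the 2 controls of lowest *Ptgds*, where prostaglandin genes gave 1 at an unadjusted p under 0.05 (*Hpgds*). Leaving out single libraries gave 0 to 0. Over all genes the 4 calls became 18 with DESeq2, 1 with limma-voom, 52 without a filter, 2 where genes had to reach 10 counts in 4 or more libraries, 22 in the 5 libraries, and 2 to 20 with single libraries left out. The adjusted p of *Ptgds* ran from 0.00307 to 0.999 (robust fit) over the alternatives with all 8 libraries, its log2 fold change from 0.51 to 0.52. Of the other meningeal genes 1 was called with DESeq2 (*Aldh1a2*), and those at an unadjusted p under 0.05 ran from 7 (without 50 ppm replicate 1) to 18. *Lum* turned to 0.0115 with limma-voom. With single libraries left out the log2 fold change crossed 0 for *Slc22a6* (-0.0322 to 0.164), *Dcn* (-0.0144 to 0.156), *Lum* (-0.0659 to 0.0387), *Igfbp2* (-0.00436 to 0.102) and *Tbx18* (-0.0912 to 0.0318). The cause was not tested for any of these. *Ptgds* and *Slc6a13* stayed positive in every fit. No paired analysis was possible because the design holds no pairs, and the labels give no replicate numbers. Each pup came from a different litter, the dose was given to the mother, and the numbers used here follow accession order. *Foxd1*, with 104 to 198 counts the lowest of the 10 genes, also had the largest SE, 0.16.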
